A study of Mus musculus with 6 samples.

Results

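The matrix metalloproteinases (MMPs), the ADAMTS proteases, the ADAMTS-like proteins and the tissue inhibitors of metalloproteinases (TIMPs) were examined in bulk RNA-seq of mouse dorsal root ganglia (DRG) and neurofibromas. Members were matched by gene symbol, the families having been picked with earlier results of these data known, and were 51 of the 24062 genes counted: 23 MMPs, 19 ADAMTS proteases, 5 ADAMTS-like genes and 4 TIMPs. *Nf1* is the neurofibromatosis gene, and *Runx1* and *Runx3* encode RUNT-domain transcription factors. The first group held 3 libraries from Nf1fl/fl;DhhCre mice, called the Nf1 libraries, whose tissue is given as DRG. The second held 3 libraries from mice that also carried floxed *Runx1* and *Runx3*, here the DKO-labelled libraries, whose tissue is given as neurofibroma tumor. The labelled tissue thus differs in step with the genotype and their effects cannot be told apart in any comparison, although the study describes tumors for the first group too and DRG/tumors for the second. The genotype label of that group reads Rx1flfl;Rx3fl/fl;DhhCre, whereas the extraction notes and the methods of the study add Nf1fl/fl, so that *Nf1* was floxed in both groups. All mice had the mixed background C57BL/6-I129 and carried Cre driven by the *Dhh* promoter, which is active in the Schwann cell (SC) lineage. Cells outside that lineage, such as macrophages, are not targeted by this Cre, and recombination was not measured here by cell type. Ages were not given for these libraries in the sources used here, and no treatment was given.

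MMPs and ADAMTS proteases are zinc-dependent enzymes that cut proteins of the extracellular matrix. MMPs are made as inactive proenzymes and degrade collagens, laminins and other matrix proteins. ADAMTS proteases include enzymes that trim procollagen and enzymes that cut proteoglycans such as versican and aggrecan. ADAMTS-like proteins resemble the non-catalytic part of ADAMTS proteases and bind matrix microfibrils, and TIMPs bind and block the active site of the enzymes. In peripheral nerve, such proteolysis is known from the remodelling that follows injury, and a collagen-rich matrix is a hallmark of neurofibroma.

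Total counts per library were 12439296 to 16682194, and 3 counts, used as the detection floor, corresponded to 0.179 to 0.247 CPM, the read count normalised to library size after TMM scaling. Such floors cover counting error only. *Runx1* was at 131, 141 and 172 CPM in the Nf1 libraries and at 84.0, 78.9 and 185 CPM in the DKO-labelled libraries, so replicate 3 of the latter was not reduced. *Runx3* was lower in each DKO-labelled library, at 10.3 to 13.5 CPM against 15.1 to 29.9 CPM. Sequencing run was the same for 5 libraries and differed for DKO-labelled replicate 3, although titles and deposited data disagree on which of replicates 2 and 3 that is. Both were therefore left out in turn. Marker genes of sensory neurons and SCs were present in all 6 libraries (*Nefl* at 468 or more and *Sox10* at 195 or more CPM), and skeletal muscle markers summed to 3610 CPM in Nf1 replicate 2 and 14200 CPM in DKO-labelled replicate 2, against 9.30 to 98.7 CPM in the other 4.

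What the proteases share beyond their names was read from the longest open reading frame of each member in GENCODE M21. The zinc site of this enzyme class is a run of 11 residues that opens with histidine and glutamate and has further histidines at its positions 5 and 11. With glycine or asparagine allowed at position 8, all 23 MMPs and 18 of the 19 ADAMTS proteases held it (*Adamts8* had no match), and none of the 5 ADAMTS-like proteins or 4 TIMPs did. Position 8 was glycine in all 23 MMPs and in 13 ADAMTS proteases and asparagine in the 5 others, which were *Adamts1*, *Adamts4*, *Adamts9*, *Adamts15* and *Adamts20*. The first 30 coding bases of the site are shown for members that differed between the groups, with the codons of positions 1, 5 and 8 in capitals:
Mmp2: CATgagttcggcCATgccatgGGGctggaa
Mmp14: CATgagttggggCATgccctaGGCctggaa
Mmp24: CATgaactgggcCATgcactgGGCttggag
Adamts2: CACgagacgggcCATgtgctgGGCatggag
Adamts1: CATgaattgggcCATgtgtttAACatgccg
Adamts5: CATgaaattgggCATctacttGGCctttct
*Mmp2* and *Mmp14* were identical at 25 of these 30 bases, and *Adamts1* and *Adamts5* at 18.

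Genes were tested with limma-voom over the whole table, and a gene was called when its Benjamini-Hochberg (BH) adjusted p was below 0.05 and it changed more than 2-fold. A count filter kept 15652 genes and 41 of the 51 members. Of these 41, 7 were called lower in the DKO-labelled libraries (*Timp1*, *Mmp2*, *Mmp14*, *Mmp17*, *Adamts2*, *Mmp19* and *Adamts1*) and 3 higher (*Mmp24*, *Mmp25* and *Adamts5*). Over all genes tested, 5.36% were called lower, 8.03% higher and 13.4% in either direction, whereas 24.4% of the members tested were called. The median log2 fold change (DKO-labelled over Nf1) of the 41 members was -0.22, against 0.02 over all genes tested. Other fits changed which members passed the filter, so their medians were not all of these 41 members. Without Nf1 replicate 3 the median was -0.45 (41 members). Without DKO-labelled replicates 2, 1 and 3 in turn it was -0.11, -0.37 and -0.51, over 44 members each. With edgeR's quasi-likelihood test and DESeq2 the median was -0.45 and -0.46 over 41 members, and with no filter -0.40 over 47. Members with few reads can enter the fits with more members through the group where they are high. Their part in these shifts was not tested. In 14 members all 3 DKO-labelled values lay below all 3 Nf1 values, and in 5 they lay above, where 20.5% and 21.8% of all genes tested did so. Without DKO-labelled replicate 3, in which *Runx1* was not reduced, 5 members were called lower and only *Adamts5* higher, with 473 lower and 1122 higher over all 15979 genes tested there. Without DKO-labelled replicate 2, *Adamts17* and *Adamts5* were called higher and again 5 lower, with 692 higher and 326 lower over all 16002 genes tested. In the fit of all 6 libraries these were 1257 higher and 839 lower. In bulk tissue, fewer cells of a type and less RNA per cell cannot be told apart, and this holds for each result that follows.

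**Figure D1:**
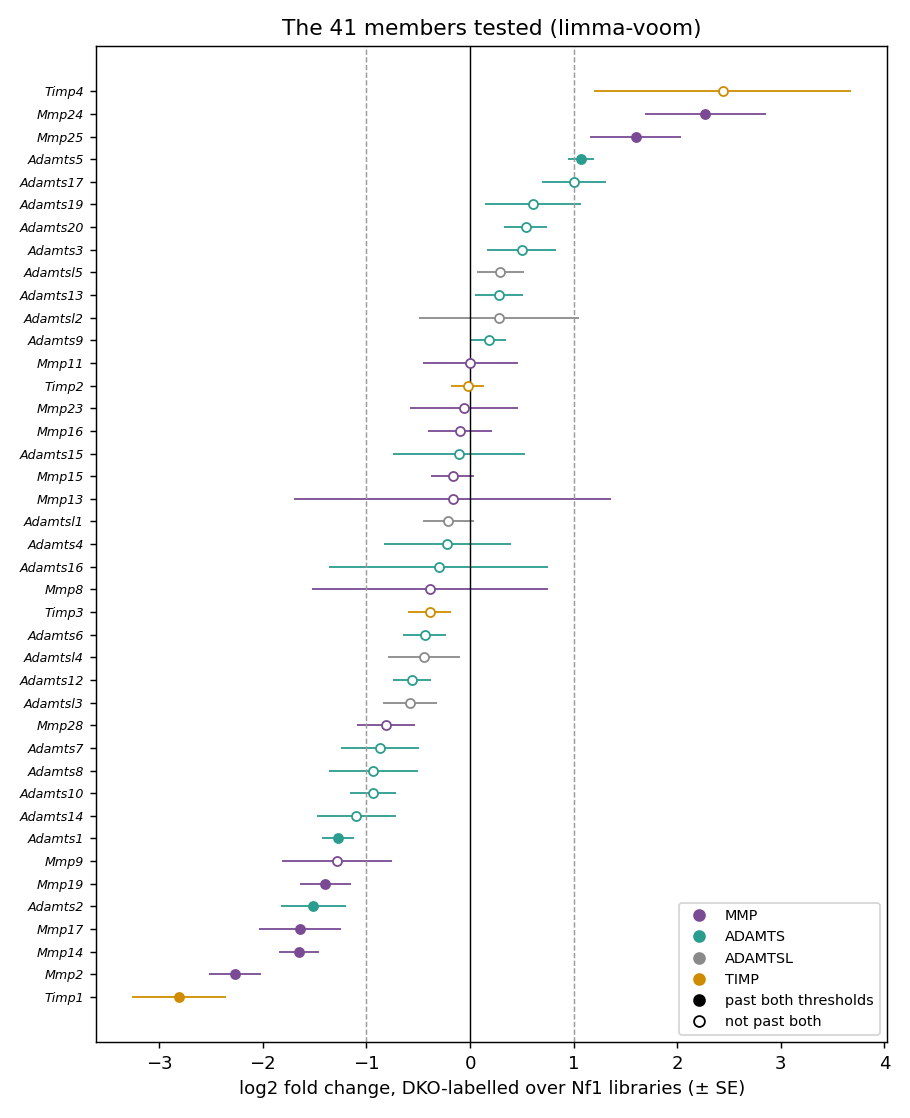
Log2 fold change of the 41 members tested, DKO-labelled over Nf1 libraries, with the standard error of the limma-voom fit as bars. Dashed lines mark 2-fold, colours mark the family, and filled points passed both thresholds. From *Timp1* at -2.81 to *Timp4* at 2.44, 28 members lay below 0 and 13 above.

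Gelatinases cut denatured collagen and basement membrane collagen. *Mmp2*, gelatinase A (chr8:92827291-92853420 of GRCm38, plus strand), was at 484, 265 and 294 CPM in the Nf1 libraries and at 80.3, 65.0 and 64.3 CPM in the DKO-labelled ones. The groups were far apart, and all 3 Nf1 values lay above the DKO-labelled ones. *Mmp2* fell 4.82-fold (log2 fold change -2.27, SE 0.25, BH-adjusted p = 0.00764 in limma-voom), and leaving out any 1 of the 6 libraries kept it called, at -2.40 to -1.98. *Mmp14* (chr14:54431612-54445364, plus strand) encodes MT1-MMP, a transmembrane enzyme that activates pro-MMP2 in a complex with TIMP2. Its values were 142, 105 and 120 CPM in the Nf1 libraries against 44.6, 30.3 and 42.1 CPM, without overlap. *Mmp14* fell 3.13-fold (log2 fold change -1.65, SE 0.19, BH-adjusted p = 0.00764 in limma-voom) and was likewise called whichever library was left out. *Mmp9*, gelatinase B, was much less abundant, at 5.62, 12.2 and 5.58 CPM against 4.06, 1.48 and 4.16 CPM. Its groups did not overlap, but the difference was not called (log2 fold change -1.28, SE 0.53, BH-adjusted p = 0.132 in limma-voom). *Mmp9* is expressed by granulocytes and osteoclasts, and its highest value was in Nf1 replicate 2, as was that of *Mmp8* and *Mmp13*.

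**Figure D2:**
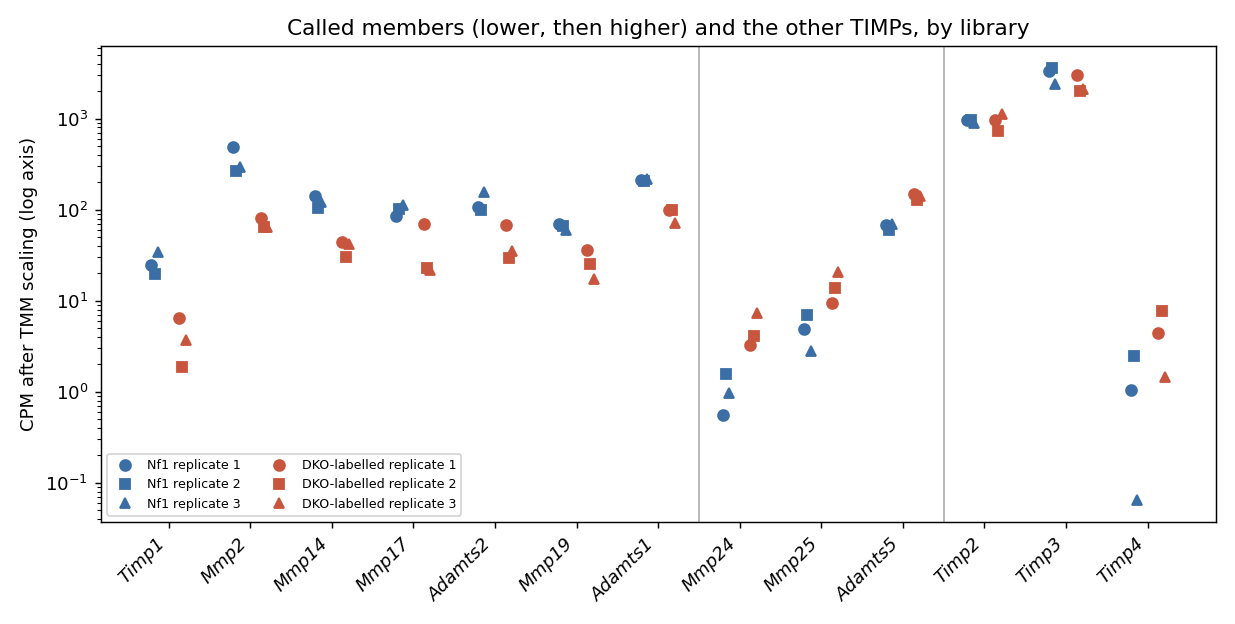
CPM of the 7 members called lower, the 3 called higher and the remaining TIMPs in each of the 6 libraries, on a log axis. Each symbol is 1 library. In the 10 called members no value of one group reaches the other, whereas *Timp2*, *Timp3* and *Timp4* overlap.

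Among the TIMPs, *Timp1* stood apart. It encodes a secreted inhibitor that is induced by injury and inflammation, and it lies on chrX:20870166-20874735, plus strand. *Timp1* was at 24.5, 19.9 and 33.9 CPM in the Nf1 libraries and at 6.46, 1.89 and 3.70 CPM in the DKO-labelled libraries, all lower than the lowest Nf1 value. This was the largest decrease among the members tested, 7.01-fold (log2 fold change -2.81, SE 0.45, BH-adjusted p = 0.0119 in limma-voom). *Timp1* stayed called in 5 of the 6 fits that left out 1 library and was lost without Nf1 replicate 1, at -2.80 (BH-adjusted p = 0.0501). *Timp2*, the partner of MT1-MMP, was at 973, 963 and 897 CPM against 958, 741 and 1130 CPM. Its log2 fold change of -0.02 (SE 0.16, BH-adjusted p = 0.938 in limma-voom) changed sign in 4 of the fits without 1 library. *Timp3*, which binds to the matrix, was the most abundant TIMP, at 3300, 3640 and 2410 CPM against 2990, 2020 and 2130 CPM. Its values overlapped, and the difference was not called (log2 fold change -0.39, SE 0.21, BH-adjusted p = 0.225). *Timp4* had few reads, at 1.04, 2.50 and 0.0641 CPM against 4.46, 7.65 and 1.45 CPM, and its difference was not called (log2 fold change 2.44, SE 1.24, BH-adjusted p = 0.206). Leaving out 1 library moved the log2 fold change of *Timp4* widely, to 1.07 without Nf1 replicate 3 and 3.51 without Nf1 replicate 2. In each group it was highest in replicate 2, the libraries with skeletal muscle marker sums of 3610 and 14200 CPM, and the part of muscle in its values was not tested.

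The genes of *Timp1*, *Timp3* and *Timp4* lie inside synapsin genes on the opposite strand, and the strand setting of the counting was not stated. Synapsins coat synaptic vesicles in neurons. In GENCODE M21, *Timp1* lies within *Syn1* with no exon base in common, *Timp3* within *Syn3* with 1733 bases and *Timp4* within *Syn2* with 90 bases. Reads of overlapping genes on opposite strands cannot be told apart without strand information. *Syn1* moved opposite to *Timp1*, from 36.3 to 78.0 CPM in the Nf1 libraries to 158 to 330 CPM in the DKO-labelled ones (log2 fold change 2.17, SE 0.37, BH-adjusted p = 0.0134 in limma-voom). *Syn2* was higher too, at 27.4 to 57.6 CPM against 6.66 to 10.2 CPM, and *Syn3* was at 81.4 to 115 CPM against 63.1 to 80.7 CPM. Their part in the values of *Timp4* and *Timp3* was not tested.

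The 6 membrane-type MMPs (MT-MMPs) act at the cell surface, 4 through a transmembrane segment (*Mmp14*, *Mmp15*, *Mmp16* and *Mmp24*) and *Mmp17* and *Mmp25* through a lipid anchor. Of the 6 tested, 2 were called lower and 2 higher (66.7%, against 13.4% of all genes tested). *Mmp17* (chr5:129584169-129611099) was at 85.7, 102 and 113 CPM in the Nf1 libraries and at 69.3, 22.7 and 21.5 CPM in the DKO-labelled ones. Replicate 1 of the latter was closer to the Nf1 libraries than to its own group. The decrease was 3.12-fold (log2 fold change -1.64, SE 0.40, BH-adjusted p = 0.0310 in limma-voom), but it was called in only 1 of the 6 fits without 1 library, the one without DKO-labelled replicate 1, and not by edgeR's quasi-likelihood test (BH-adjusted p = 0.0702).

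*Mmp24* (chr2:155775342-155818366) encodes MT5-MMP, an enzyme known from neurons. It was at 0.555, 1.55 and 0.962 CPM in the Nf1 libraries, or 8, 26 and 15 counts, and at 3.27, 4.11 and 7.39 CPM in the DKO-labelled libraries, or 41, 50 and 112 counts. All 3 DKO-labelled values were higher, by 4.82-fold in the fit (log2 fold change 2.27, SE 0.58, BH-adjusted p = 0.0360 in limma-voom). *Mmp25* (chr17:23628311-23645277), first described in leukocytes, was at 4.92, 7.03 and 2.82 CPM against 9.40, 13.7 and 20.8 CPM, again without overlap. It rose 3.03-fold (log2 fold change 1.60, SE 0.44, BH-adjusted p = 0.0439 in limma-voom), the called member nearest to the p threshold. Both genes were called in 2 of the 6 fits without 1 library, those without Nf1 replicate 2 and without DKO-labelled replicate 1. *Mmp24* shares 637 exon bases with *BC029722* on the opposite strand, which was at 0.555 to 2.03 CPM in the Nf1 and 0.956 to 1.73 CPM in the DKO-labelled libraries. The 17 sensory neuron markers summed to 1290 to 2720 CPM in the Nf1 libraries, labelled DRG, and to 6650, 7700 and 15000 CPM in the DKO-labelled libraries, labelled tumor, and so ran against the tissue labels. The highest *Mmp24*, the highest *Mmp25* and the highest neuron sum were all in DKO-labelled replicate 3, and the part of neuron content in both results was not tested. *Mmp15* was at 51.7 to 72.4 CPM in the Nf1 libraries and 42.0 to 62.1 CPM in the others (log2 fold change -0.17, SE 0.21, BH-adjusted p = 0.602), and *Mmp16* differed by -0.10 (SE 0.31).

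*Mmp19* (chr10:128790910-128800824), an MMP of wound and vessel tissue, was called lower. Its values were 70.3, 66.0 and 60.5 CPM in the Nf1 libraries against 35.9, 25.2 and 17.5 CPM. The Nf1 libraries lay close together and all above the DKO-labelled ones, by 2.63-fold (log2 fold change -1.40, SE 0.24, BH-adjusted p = 0.0138 in limma-voom). The call was lost in 1 of the 6 fits without 1 library, the one without Nf1 replicate 1 (BH-adjusted p = 0.0632). *Mmp19* overlaps *Tmem198b* on the opposite strand by 789 exon bases, and *Tmem198b* was lower as well, at 4.03 to 7.01 CPM against 8.74 to 12.5 CPM. *Mmp28*, epilysin, had 5.64 to 7.21 CPM in the Nf1 libraries and 2.96 to 4.06 CPM in the DKO-labelled ones without overlap, but was not called (log2 fold change -0.81, SE 0.28, BH-adjusted p = 0.0802). *Mmp11* and *Mmp23* differed by 0.00 (SE 0.46) and -0.06 (SE 0.52).

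A cluster of 10 MMP genes on chr9:7272514-7699585, with the collagenases, stromelysins, matrilysin and metalloelastase, had few reads. *Mmp1a*, *Mmp1b*, *Mmp10* and *Mmp20* had 0 counts in all 6 libraries, which allows up to 0.179 to 0.247 CPM depending on the library. *Mmp7* had 2 counts in 1 library and *Mmp27* 0 to 6 counts. *Mmp3*, stromelysin-1, had 27, 8 and 18 counts in the Nf1 libraries and 6, 3 and 1 in the DKO-labelled ones. *Mmp12*, the elastase of macrophages, had 39, 0 and 25 counts against 2, 4 and 2, so that Nf1 replicate 2 was below every DKO-labelled library. Neither passed the count filter over all 6 libraries. *Mmp12* and *Mmp1b* share 157 exon bases on opposite strands.

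Promoter sequences from RefSeq (GRCm38.p6, 250 bases before to 50 after the start) were at hand for 36 of the 51 members and for all 10 genes of the cluster. The AP-1 motif TGANTCA, which reads the same on both strands, occurred in the promoters of 8 of these 10 genes (not *Mmp8* or *Mmp27*) and in none of the other 26 members with a promoter. Over all 32851 promoters of the table, 7.81% held it. It is shown in capitals within 30 bases of the plus strand for cluster genes with and without reads:
Mmp13 at chr9:7272468-7272497: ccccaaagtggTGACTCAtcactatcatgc
Mmp3 at chr9:7445765-7445794: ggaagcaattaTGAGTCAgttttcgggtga
Mmp12 at chr9:7347319-7347348: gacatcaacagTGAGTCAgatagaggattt
Mmp1a at chr9:7464057-7464086: gttgtcaaccaTGAGTCAcatagcctctgg
Mmp10 at chr9:7502268-7502297: tagcacccatgTGAGTCAtgcttagtgacc
The RUNX core motif TGTGGT, on either strand, was held by 16.8% of all promoters and by those of 6 members (*Mmp1b*, *Mmp7*, *Mmp13*, *Mmp14*, *Mmp23* and *Mmp27*). Among the 10 called members, promoters were at hand for *Timp1*, *Mmp14*, *Mmp24*, *Mmp25*, *Adamts1* and *Adamts2*, and only that of *Mmp14* held it. It is given for *Mmp14*, from position -114 relative to the start, and for *Mmp13*, from -118 and apart from its AP-1 motif at -35, in both as the reverse complement ACCACA:
Mmp14 at chr14:54431472-54431501: atggcagcctgcACCACAgaaaagacaaac
Mmp13 at chr9:7272384-7272413: attctgccacaaACCACActtaggaagaaa
A match of letters is a description of the window and not a binding site, and the binding of RUNX1 was not analysed here.

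*Mmp8*, the collagenase of neutrophils, and *Mmp13*, the collagenase of cartilage and bone, were the cluster genes that passed the filter, and both varied widely within each group. *Mmp8* was at 0.971, 12.6 and 1.22 CPM in the Nf1 libraries and at 1.12, 1.15 and 5.02 CPM in the DKO-labelled ones. *Mmp13* was at 1.04, 15.5 and 0.321 CPM against 0.638, 0.905 and 6.07 CPM. Nf1 replicate 2 was the highest and DKO-labelled replicate 3 the next for both genes. Neither was called, and the errors were wide (log2 fold changes -0.39, SE 1.14, and -0.17, SE 1.53, with BH-adjusted p = 0.843 and adjusted p = 0.951 in limma-voom). The 9 neutrophil markers found in the files summed to 176 CPM in Nf1 replicate 2 and 113 CPM in DKO-labelled replicate 3, against 33.6 to 65.9 CPM in the other 4. *Mpo*, myeloperoxidase of granulocyte precursors, was at 17.8 and 13.2 CPM in these libraries and at 0.257 to 1.35 CPM in the rest. Of the 9 neutrophil markers, 7 had their 2 highest values in these libraries, whereas *Retnlg* was highest in Nf1 replicate 1 (22.4 CPM) and *Csf3r* was at 31.6 to 42.5 CPM in the Nf1 and 18.5 to 24.7 CPM in the DKO-labelled libraries, lowest of its group in Nf1 replicate 2. *Ibsp*, bone sialoprotein, was at 29.4 and 4.16 CPM and otherwise at 0.139 to 1.67 CPM. The sum of the 13 bone and cartilage markers did not single out Nf1 replicate 2 and DKO-labelled replicate 3 (31.2 to 43.5 CPM in the DKO-labelled and 105 to 119 CPM in the Nf1 libraries). Its largest part was *Col2a1*, at 73.6, 43.3 and 86.2 CPM in the Nf1 and 20.1, 12.7 and 11.2 CPM in the DKO-labelled libraries. *Col2a1* was thus lowest of its group in both Nf1 replicate 2 and DKO-labelled replicate 3, and the sum without it was not examined. The part of bone or marrow in these values was not tested.

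**Figure D3:**
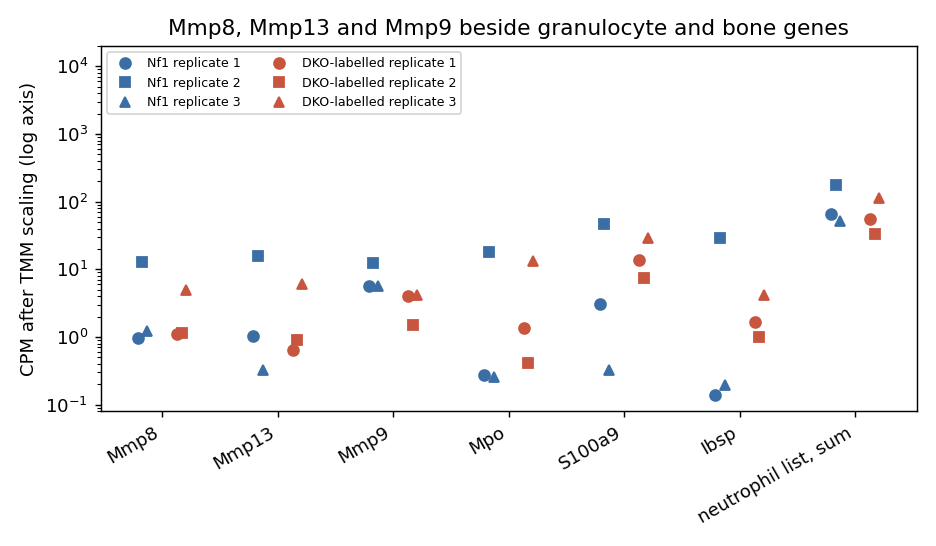
CPM of *Mmp8*, *Mmp13* and *Mmp9* in the 6 libraries beside *Mpo*, *S100a9*, *Ibsp* and the sum of the neutrophil markers, on a log axis. Of the bone and cartilage markers only *Ibsp* is shown. Nf1 replicate 2 (blue square) is highest in each column, and DKO-labelled replicate 3 (red triangle) is next in each column but *Mmp9*.

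*Adamts1* and *Adamts5* are neighbours on chromosome 16, with 53059 bases between them and both on the minus strand, and they moved in opposite directions. Both enzymes cut proteoglycans, versican and aggrecan among them. *Adamts1* (chr16:85793827-85803113) was at 212, 207 and 217 CPM in the Nf1 libraries and at 99.2, 98.0 and 70.8 CPM in the DKO-labelled libraries. It fell 2.41-fold (log2 fold change -1.27, SE 0.15, BH-adjusted p = 0.00805 in limma-voom). *Adamts5* (chr16:85856173-85901828) was at 68.7, 60.5 and 69.7 CPM against 148, 129 and 140 CPM. It rose 2.10-fold (log2 fold change 1.07, SE 0.12, BH-adjusted p = 0.00764 in limma-voom), just inside the 2-fold threshold. Spread within groups was small for both genes, and both stayed called whichever library was left out. Scaled by library size only, *Adamts5* rose by 0.99 and was no longer called. Per kilobase of exon, *Adamts5* stood at 0.144 to 0.159 of *Adamts1* in the Nf1 libraries and at 0.649 to 0.970 in the DKO-labelled ones. *Adamts1* was thus the higher of the pair on the per-length scale, but the 2 were nearly equal in DKO-labelled replicate 3 (0.970). That order rests on GENCODE M21 exon lengths, and the annotation used for the counts was not given. In plain CPM *Adamts5* had the higher value in each DKO-labelled library.

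**Figure D4:**
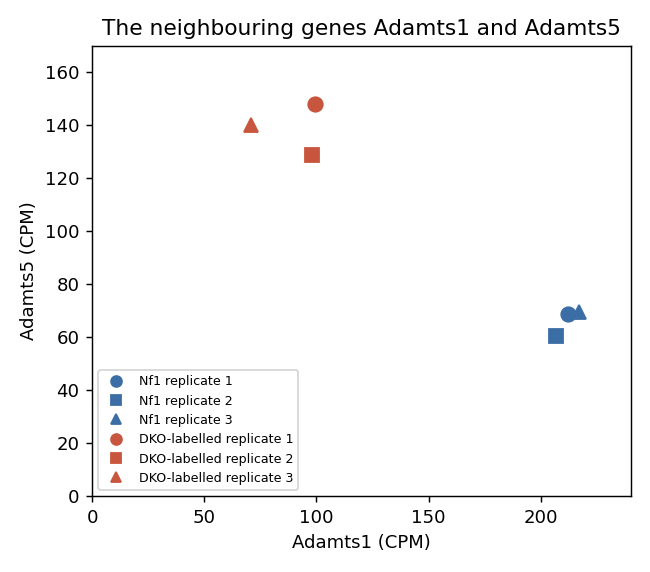
*Adamts5* against *Adamts1* in CPM, 1 point per library, with linear axes from 0. The 3 Nf1 libraries (blue) lie near 212 and 66 CPM, and the 3 DKO-labelled libraries (red) at 70.8 to 99.2 CPM of *Adamts1* and 129 to 148 CPM of *Adamts5*.

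The other proteoglycan-cleaving ADAMTS proteases were not called. *Adamts20*, known for its role in pigment cell migration, was at 114, 82.6 and 101 CPM in the Nf1 libraries and at 186, 118 and 132 CPM in the DKO-labelled ones, without overlap (log2 fold change 0.54, SE 0.21, BH-adjusted p = 0.110 in limma-voom). *Adamts9*, expressed in vessels and during development, was at 27.8 to 32.5 CPM and 28.9 to 39.7 CPM. *Adamts4*, *Adamts8* and *Adamts15* were at 1.19 to 19.6 CPM in the Nf1 libraries, with log2 fold changes from -0.94 to -0.10.

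Procollagen N-proteinases remove the amino-terminal propeptide of fibrillar collagens. *Adamts2* (chr11:50602084-50807573), the main enzyme for type I procollagen in skin, was at 108, 100 and 155 CPM in the Nf1 libraries and at 68.2, 29.7 and 35.6 CPM in the DKO-labelled libraries. It was lower in all 3, by 2.86-fold (log2 fold change -1.51, SE 0.31, BH-adjusted p = 0.0206 in limma-voom). The call held in 2 of the 6 fits without 1 library, those without Nf1 replicate 2 and without DKO-labelled replicate 1, and its adjusted p in the other 4 was at most 0.0654. *Adamts14* had 57.9, 29 and 43.2 CPM against 27.2, 11.2 and 23.1 CPM, also without overlap. Its change exceeded 2-fold but not the p threshold (log2 fold change -1.10, SE 0.38, BH-adjusted p = 0.0828 in limma-voom). *Adamts14* was called lower by DESeq2, with sample quality weights in limma-voom and without Nf1 replicate 2 (adjusted p = 0.0217, adjusted p = 0.0377 and adjusted p = 0.0398), and its adjusted p over all alternatives ran from 0.0217 to 0.211. *Adamts3* did not share the direction, at 4.99 to 6.67 CPM in the Nf1 and 5.58 to 11.9 CPM in the DKO-labelled libraries (log2 fold change 0.50, SE 0.33).

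Of the other ADAMTS proteases, 8 were tested and 0 were called by limma-voom or edgeR, against 1 (*Adamts17*) by DESeq2 or with an unadjusted p. Limma-voom called 13.4% of all genes tested. With limma-voom, *Adamts10* was called lower when scaled by library size only (log2 fold change -1.02) or without Nf1 replicate 1 (-1.11), and *Adamts17* higher without DKO-labelled replicate 2 (1.26). *Adamts10*, which binds fibrillin microfibrils, was at 35.4, 55.0 and 54.1 CPM against 28.8, 23.3 and 22.8 CPM. Its difference passed the p threshold and just missed 2-fold (log2 fold change -0.94, SE 0.22, BH-adjusted p = 0.0297 in limma-voom). *Adamts17*, a relative that is also tied to fibrillin, was at 6.52, 4.77 and 6.29 CPM against 13.5, 7.89 and 14.1 CPM. It lay just past 2-fold and just outside the p threshold (log2 fold change 1.002, SE 0.31, BH-adjusted p = 0.0603), and DESeq2 called it (adjusted p = 0.0117). *Adamts12* had 37.9 to 41.5 CPM against 20.6 to 30.6 CPM (log2 fold change -0.56, SE 0.18, BH-adjusted p = 0.0704). *Adamts13*, which cleaves von Willebrand factor, had 18.1 to 30.9 CPM and 25.0 to 31.6 CPM. *Adamts18* had 49 counts over all libraries and was not tested.

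The 5 ADAMTS-like genes, which have no zinc site, had log2 fold changes from -0.58 to 0.29. By limma-voom, edgeR or DESeq2 or with an unadjusted p, 0 were called, where limma-voom called 13.4% of all genes tested. *Adamtsl1*, the most abundant of them in CPM, was at 106, 72.0 and 132 CPM in the Nf1 libraries and 104, 72.7 and 84.8 CPM in the others (log2 fold change -0.21, SE 0.25, BH-adjusted p = 0.581). *Adamtsl5* was at 32.2 to 48.1 CPM and 36.0 to 53.9 CPM (log2 fold change 0.29, SE 0.22, BH-adjusted p = 0.395). *Adamtsl3* was the one without overlap, at 28.2 to 49.7 CPM against 20.6 to 26.3 CPM, and its BH-adjusted p was 0.155.

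Levels were compared between genes per kilobase of exon in GENCODE M21. *Mmp2* led the MMPs in both groups, at 103 ± 35.2 CPM per kb (SD, n = 3) in the Nf1 libraries and 20.7 ± 2.69 CPM per kb (SD, n = 3) in the DKO-labelled libraries. Next came *Mmp14* at 20.5 ± 3.13, *Mmp19* at 18.6 ± 1.39, *Mmp17* at 15.2 ± 2.10 and *Mmp15* at 11.5 ± 1.91 CPM per kb (SD, n = 3 each) in the Nf1 libraries, of which *Mmp14* and *Mmp19* differed by less than the SD of *Mmp14*. In the DKO-labelled libraries *Mmp15*, at 10.2 ± 2.13 CPM per kb, followed *Mmp2*. *Mmp2* made up 48.5 to 63.9% of the summed MMP level in the Nf1 libraries and 30.2 to 36.9% in the DKO-labelled ones. The summed MMP level was 162 to 225 CPM per kb against 52.2 to 73.2, and the summed TIMP level 564 to 717 against 441 to 622 CPM per kb. The summed ADAMTS level was 99.1 to 109 against 67.9 to 88.7 CPM per kb. The MMP and ADAMTS sums did not overlap, whereas the TIMP sums did. *Adamts1* made up 37.5 to 39.4% of the ADAMTS sum in the Nf1 and 18.2 to 27.2% in the DKO-labelled libraries, and without it, a setting added after the data were seen, the ADAMTS sums overlapped (60.0 to 68.2 against 49.4 to 70.0 CPM per kb). The ratio of the TIMP to the MMP sum was 3.04, 4.42 and 3.42 in the Nf1 libraries and 8.49, 8.46 and 8.79 in the DKO-labelled libraries. *Timp3* and *Timp2* carried nearly all of the TIMP sum, and the share of *Timp1* was 3.12 to 6.76% against 0.483 to 1.17%. No test was made of these sums, which are of RNA and say nothing of active enzyme.

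**Figure D5:**
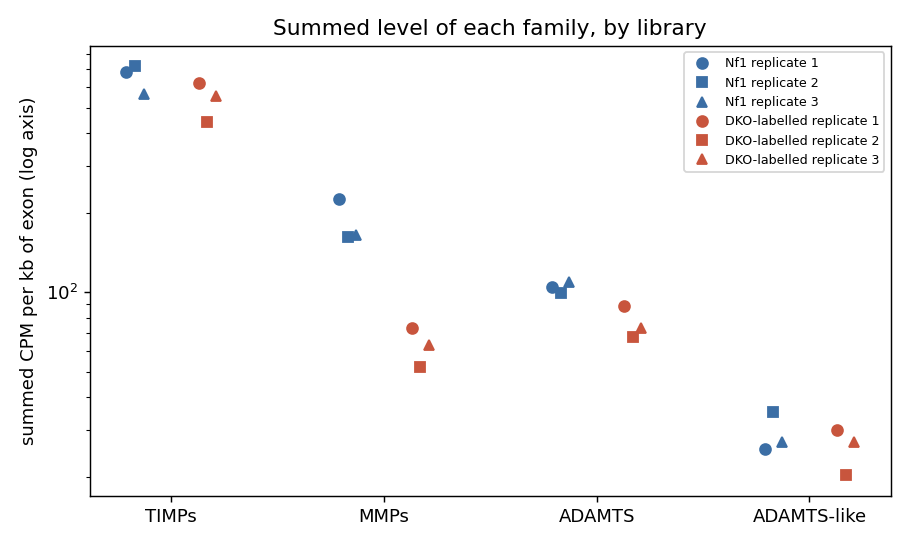
Summed level of the TIMPs, MMPs, ADAMTS proteases and ADAMTS-like genes in each library, in CPM per kb of exon on a log axis. Each symbol is 1 library. MMP sums were 162 to 225 in the Nf1 and 52.2 to 73.2 in the DKO-labelled libraries, ADAMTS sums were 99.1 to 109 and 67.9 to 88.7, and the TIMP and ADAMTS-like sums overlapped.

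Other genes of extracellular proteolysis were taken from a list of 46 genes, of which 42 were tested, 12 were called lower and 3 higher, or 35.7% against 13.4% over all genes tested. Their median log2 fold change was -0.75, against 0.02 over all genes tested. Among genes of the plasminogen system and proprotein convertases, 1 of 8 tested (12.5%, near that 13.4%) was called, *Serpine2*, an inhibitor of plasminogen activators and thrombin (log2 fold change -1.71, SE 0.19, BH-adjusted p = 0.00764 in limma-voom). *Plau* and *Plat*, the plasminogen activators, had log2 fold changes of -1.41 (SE 0.44) and -1.22 (SE 0.37) and did not pass the p threshold. *Thbs2* and *Thbs1*, thrombospondins that bind MMP2 for uptake into cells, were called lower at -2.62 (SE 0.32) and -1.50 (SE 0.38). The uptake receptor *Lrp1* had a log2 fold change of -0.81 (SE 0.17), short of 2-fold. Among related metalloproteases, *Bmp1*, the procollagen C-proteinase, was called lower at -1.58 (SE 0.24) and *Pappa*, which cuts IGF-binding proteins, at -2.09 (SE 0.49). The *Bmp1* relative *Tll1* was called higher at 1.55 (SE 0.24).

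Among the parts of the proteolysis list, matrix substrates of these enzymes had the most calls, with 7 of 14 tested lower and 2 higher (64.3%). Versican (*Vcan*) was at 1160, 943 and 948 CPM in the Nf1 libraries and at 447, 202 and 286 CPM in the DKO-labelled libraries (log2 fold change -1.78, SE 0.27, BH-adjusted p = 0.0108 in limma-voom). The brain-type proteoglycans *Bcan* and *Ncan* were called higher, at 2.08 (SE 0.51) and 2.16 (SE 0.62). *Fbn2*, *Ltbp1* and *Fbn1*, components of microfibrils, were called lower at -2.43, -2.03 and -1.56, and *Nid1*, *Dcn* and *Col1a2* at -1.27, -1.21 and -1.09.

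Marker genes of other cell types moved in the same libraries. Of 12 macrophage markers, 9 were called lower (75%, against 5.36% of all genes tested). Their sum was 1170 to 2230 CPM in the Nf1 and 237 to 531 CPM in the DKO-labelled libraries. Among 11 fibroblast markers, 5 were called lower (45.5%), with sums of 9430 to 10100 CPM against 3570 to 5860 CPM. *Col1a1*, *Col1a2*, *Col3a1* and *Dcn* were also in the list of matrix substrates, so *Col1a2* and *Dcn* are counted as lower in both lists. *Mmp2*, *Mmp14* and *Adamts2* are known products of fibroblasts. Within the DKO-labelled group, replicate 1 had the highest fibroblast and macrophage sums and the highest value of each of the 7 members called lower. Within the Nf1 group, replicate 2 had the highest fibroblast sum (10100 CPM) and the lowest macrophage sum (1170 CPM), and the lowest *Mmp2*, *Mmp14*, *Timp1*, *Adamts1* and *Adamts2*. That fibroblast sum was led by *Dcn*, at 3460, 4680 and 3260 CPM in the Nf1 libraries. *Dcn*, *Pdgfra*, *Fbln1*, *Pi16* and *Mfap5* were highest in Nf1 replicate 2 within the group, whereas *Col1a1*, *Col1a2*, *Col3a1*, *Lum*, *Dpt* and *Col14a1* were lowest there. Replicate 3 had the highest macrophage sum (2230 CPM) and the highest *Timp1*, *Adamts1*, *Adamts2* and *Mmp17*, whereas *Mmp2*, *Mmp14* and *Mmp19* were highest in replicate 1. Myelinating SC markers were called higher in 10 of 12 and general SC markers in 2 of 7 (83.3% and 28.6%, against 8.03% of all genes tested). The general SC markers summed to 1370 to 1560 CPM against 1540 to 2050 CPM. The 8 T and NK cell markers summed to 15.1, 14.2 and 50.7 CPM in the Nf1 and 4.03 to 6.50 CPM in the DKO-labelled libraries, without overlap. In Nf1 replicate 3, *Cd4* gave 23.3 CPM of the 50.7. Of these markers 6 were tested and 0 called. *Nkg7*, at 11, 24 and 58 counts against 4, 0 and 1, passed the filter only through the Nf1 libraries. The sums of the 8 mast cell, 9 endothelial and 8 mural markers overlapped between the groups. None of the 12 macrophage markers found in the files, of 13 listed, and none of the 11 fibroblast markers had 0 counts in all 6 libraries, and the part of cell content in the results for the members was not tested.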

How the data were processed

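Gene counts per library were deposited by the authors as raw read counts, made with featureCounts after TopHat alignment to mm10. RNA had been amplified (NuGEN Ovation v2) before Nextera XT libraries were made, and the annotation, strand setting and treatment of multimapping reads were not given in the sources used here. Members were matched by symbol, and the members and gene lists were chosen with earlier results of these data known. Counts of 3 Nf1 and 3 DKO-labelled libraries were filtered with filterByExpr (minimum count 10, minimum total 15), TMM-scaled and fitted with limma-voom (limma 3.58.1, edgeR 4.0.16, R 4.3.3), the design being group only, with BH adjustment over 15652 genes. A called gene had an adjusted p below 0.05 and more than a 2-fold change, as in the study's methods. Genes were named by rule if they were called members, TIMPs, uncalled members whose mean log2 CPM reached 5, members just inside or outside a threshold, members at 0 counts throughout, or called genes of the proteolysis list. Other genes given with values, such as *Mmp8*, *Mmp9*, *Mmp13*, *Mmp28*, *Plau*, *Plat* and *Lrp1*, were chosen after their values were seen. The fit was repeated with DESeq2 1.42.0, with edgeR's quasi-likelihood test, with other scalings and filters, and with each library left out. The fit was tested on simulated data of 15386 genes, 196 of them changed by a log2 fold change of 2 in either direction. It called 66.8% of these 196 in the right direction and made 5 false calls. A gene that was not called may thus still have changed. Titles name different mice, so p-values measure the spread between mice. Exon lengths and overlaps came from GENCODE M21 (GRCm38).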

Additional observations from a re-analysis of the deposited data

How the results depend on the processing

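Called members numbered 3 higher and 7 lower, and under other tests, scalings, weights and filters these counts were 2 to 4 and 6 to 8. With an unadjusted p they were 4 and 9. Leaving out 1 library at a time gave 1 to 3 higher and 4 to 8 lower. Without Nf1 replicate 1, Nf1 replicate 3 or DKO-labelled replicate 3 only *Adamts5* was called higher, and without Nf1 replicate 1 the 4 called lower were *Adamts1*, *Adamts10*, *Mmp14* and *Mmp2*. Calls over all genes fell as well without Nf1 replicate 1, from 1257 higher and 839 lower to 181 and 181, and to 535 and 498 without Nf1 replicate 3 and 1122 and 473 without DKO-labelled replicate 3. Under the other tests, scalings, weights and filters they were 1153 to 1671 higher and 843 to 1236 lower, and with an unadjusted p 1734 and 1244. The 8 called lower without Nf1 replicate 2 include *Mmp12*, which enters the test only through the group where it is high. The cause was not tested. Log2 fold changes near 0 changed sign in some of these fits, and ranged from -0.26 to 0.016 for *Mmp15*, from -0.16 to 0.14 for *Timp2* and from -0.41 to 0.024 for *Adamtsl1*. Over all values compared for named genes, 271 kept direction and side of the thresholds, 10 passed newly, 21 no longer passed and 6 changed sign. No paired analysis was possible because the labels number no replicates across the groups. *Mmp24* rested on 8 to 112 counts per library and *Timp4* on 1 to 93.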
